A study of Mus musculus with 20 samples.

Results

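The CCN family was described across normal and Hyp mouse bone as the 5 genes Ccn1 to Ccn5, which older annotations call Cyr61, Ctgf, Nov, Wisp1 and Wisp2. All probe sets annotated to these symbols were taken, which gave 10 probe sets among the 27141 tested, and the 5 genes stand among 12244 genes whose brightest probe set was tested. Each of the 10 was called present on 20 of 20 arrays, so no member was lost to the filter on low signals. The family was chosen by its own Hyp against normal signal differences in the same 10 pairs, including the unlike change of Ccn2 in males and females. Those values are therefore given here as a description, with no test.

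CCN proteins are secreted, cysteine-rich proteins of the extracellular matrix that are built from modules shared with other proteins: an insulin-like growth factor binding module, a von Willebrand factor type C module, a thrombospondin type 1 module and a C-terminal cystine knot, the last of which Ccn5 lacks. They bind integrins, proteoglycans and growth factors and are called matricellular because they modulate cell behaviour more than they bear load. In cells of bone and cartilage, Ccn1 and Ccn2 are known as early targets of YAP and TEAD, of serum response factor and of TGF-beta, Ccn4 and Ccn5 were first described as Wnt-induced genes, and Ccn3 is known as an inhibitor of osteoblast differentiation.

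Total RNA came from the femoral shaft of 5-week-old mice on the C57BL/6J background, cut free of its ends and flushed of marrow as far as possible. Affymetrix arrays were made for 4 groups, 5 for each: normal males, Hyp males (hemizygous, Hyp/Y), normal females and Hyp females (heterozygous, Hyp/+). Hyp is a deletion in the X-linked gene Phex, which encodes a membrane endopeptidase made by bone-forming cells, and models human X-linked hypophosphatemia. A heterozygous female is a mosaic, because each of its cells uses 1 X chromosome. All Hyp males are hemizygous and all Hyp females heterozygous. Wherever the Hyp change differs between the sexes below, sex and dose of the mutant allele therefore cannot be told apart. Each array holds RNA pooled from 2 mice alike in genotype and sex, so 40 mice stand behind the 20 arrays. Each of the 5 series holds 1 array of each group, from littermates handled in parallel, which gives 5 male and 5 female pairs, each with 1 Hyp array and its normal partner. Values below are array signals in units of fluorescence. Log2 changes are differences of log2(signal + 16) between Hyp and normal, with the standard error of a linear model across all probe sets.

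The arrays shared a trimmed mean signal of 500.0 and called 49.3% to 56.9% of 45101 probe sets present. All 6 osteoblast markers with a probe set (of 8 listed) were present on every array. All 10 skeletal muscle, all 11 endothelial and all 8 neutrophil markers were too, and 5 of 6 erythroid markers with a probe set. The shaft RNA therefore also held RNA of those tissues and cells, marrow or blood cells among them. Phex read 2391.3 to 4002.5 in normal males and 3.8 to 48.2 in Hyp males, with a present call on 0 of 5 Hyp male arrays. It read 3388.3 to 5763.8 in normal and 356.5 to 847.2 in Hyp females. The position of its probes relative to the deletion was not looked up, so loss of the probes' target and less transcript cannot be told apart. The actin 3′/5′ signal ratio, a measure of RNA integrity, was higher in Hyp in 5 of 5 male pairs, by 0.17 ± 0.07 on the log2 scale (SD, n = 5), and in 4 of 5 female pairs, by 0.11 ± 0.10.

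One promoter of the family was in the sequence table used here. It is shown because Ccn1 is a textbook target of YAP and TEAD, whose other target genes are described further on. The 300 bases span 250 before to 50 after the RefSeq start of Ccn1 (GRCm38.p6, chr3:145649936-145650235, minus strand), read 5′ to 3′ along the gene. Capitals mark the TEAD motif GGAATG, which stands here on the opposite strand as CATTCC.
Ccn1 promoter: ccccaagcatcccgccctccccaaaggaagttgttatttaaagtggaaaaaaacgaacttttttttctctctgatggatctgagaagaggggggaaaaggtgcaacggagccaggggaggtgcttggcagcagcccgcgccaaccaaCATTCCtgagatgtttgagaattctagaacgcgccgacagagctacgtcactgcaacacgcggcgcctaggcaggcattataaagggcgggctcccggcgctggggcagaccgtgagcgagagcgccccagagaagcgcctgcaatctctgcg
The match starts at -103 from the gene's start. Both strands were searched for GGAATG, for the cyclic AMP response core TGACG, which matched at -58 as CGTCA, and for the CArG box bound by serum response factor, which had no match in these letters. The matches do not overlap. Of 32851 windows of the same length, 14.7% held GGAATG, 20.8% the TGACG core and 1.63% a CArG box. Of the 14 genes of the YAP target list that have a window, 6 held GGAATG, 3 the TGACG core and 0 a CArG box. A match describes these letters and not a bound site. Ccn2, Ccn3, Ccn4 and Ccn5 are named only.

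Across the family, the genes did not move alike in Hyp against normal. Ccn5 and Ccn4 had lower signals in Hyp mice of both sexes. Ccn3 was lower in every male pair and in part of the female pairs. Ccn2 was lower in Hyp males and mostly higher in Hyp females, and the brighter pair of Ccn1 probe sets lay lower in Hyp males. Over both sexes, 8 of 10 probe sets had a log2 change below 0, and their median was -0.36 against 0.01 over all probe sets tested. In males 8 of 10 were below 0, with a median of -0.56. In females 5 of 10 were, with a median of -0.10. Called at an adjusted p of 0.05 were 3 of the 10 over both sexes (the Ccn5 and both Ccn4 probe sets), beside 2.38% of all probe sets tested and 1.3% called lower. In males 1 was called (Ccn5), beside 0.0995% of all. In females 0 were, beside 0.00368%, and for the difference between the sexes 0, beside 0.00368%. Since these contrasts chose the genes, nothing is read from those counts. In bulk RNA of a tissue, fewer cells of a type and less RNA per cell cannot be told apart.

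**Figure D1:**
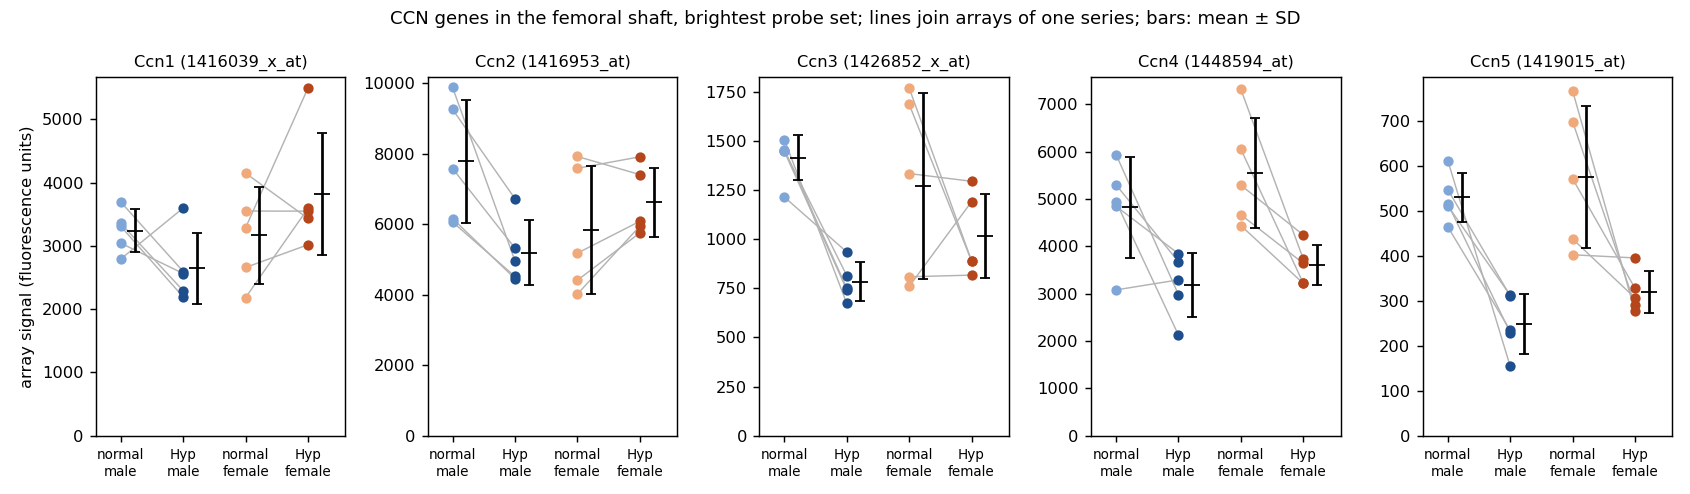
Signal (fluorescence units, linear axis from 0) of the brightest probe set of each CCN gene on every array, by group. Grey lines join the 2 arrays of a series and sex, and black bars give the mean ± SD of 5 arrays. The 10 Hyp arrays of Ccn5 lie between 154.3 and 395.6, below all 10 normal arrays, while Ccn2 slopes down in males and mostly up in females.

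Ccn5, described as a growth-inhibiting member expressed in osteoblasts and smooth muscle, showed the clearest separation of the genotypes. In series 1 to 5, normal male arrays read 547.5, 611.9, 464.6, 516 and 511.6, and Hyp male arrays read 311, 154.3, 234.2, 229.4 and 312.3. Normal female arrays read 571.6, 437.8, 767.2, 698.7 and 402.6, and Hyp female arrays 328.1, 306.5, 276.6, 291.1 and 395.6. All 10 Hyp arrays lay below all 10 normal arrays, a pattern shown by 0.0663% of the probe sets tested. The closest pair was that of series 5 females, where the Hyp array read 0.983 of the normal one. The log2 change was -1.08 ± 0.19 (SE) in males, -0.79 ± 0.19 in females and -0.93 ± 0.14 over both. The male pair of series 2 was farthest apart, at -1.88, and the female pairs ran from -1.42 to -0.02.

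Ccn4, a Wnt-induced member expressed by osteoblasts and their progenitors, was lower in Hyp by nearly the same amount in both sexes. Its brightest probe set, 1448594_at, read 4843.7, 4938.8, 3079.3, 5297.5 and 5937.2 in normal males and 3842.4, 2123.9, 3291.3, 3672.3 and 2977 in Hyp males. In females it read 5290.5, 6049.8, 4665.7, 4438.5 and 7312.4 in normal and 4239.2, 3220.6, 3640.7, 3215.8 and 3733.1 in Hyp mice. The female groups did not overlap, as for 1.14% of all probe sets. The male groups did, because the normal array of series 3 was low and its Hyp partner read slightly more. The log2 change was -0.59 ± 0.18 (SE) in males and -0.60 ± 0.18 in females. The second probe set, 1448593_at, gave -0.80 ± 0.21 and -0.81 ± 0.21. It was lower in 10 of 10 pairs, as were 1.04% of all probe sets, although its groups overlapped.

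Osteocyte markers were lower in the same Hyp mice. Of 6 osteocyte markers tested, 4 fell in Hyp (limma adjusted p): Dmp1, a matrix phosphoprotein, by 0.79 ± 0.15 (SE) on the log2 scale (0.0156), Sost, the Wnt inhibitor sclerostin, by 1.31 ± 0.18 (0.0031), Pdpn, a marker of early osteocytes, by 0.64 ± 0.12 (0.013), and Dkk1, another Wnt inhibitor, by 1.27 ± 0.18 (0.00448). Mepe (-0.75, 0.0561) and Fgf23 (-0.09, 0.775) did not pass. The summed signal of the 6 markers ran from 19903 to 28516 in normal males, 7788 to 18518 in Hyp males, 20956 to 24704 in normal females and 9541 to 17845 in Hyp females. The lowest normal array of either sex was therefore above the highest Hyp array. Most of this sum is Dmp1 alone, with mean signals of 19538 and 11960 in normal and Hyp males and 19283 and 11356 in females. Of 6 osteoblast markers, Ifitm5, a membrane protein of mineralizing osteoblasts, fell by 0.87 ± 0.14 (0.00903), and the other 5 did not pass. Leaving out series 2, 4 or 5 ended the calls of Dmp1, Pdpn and Ifitm5 (adjusted p up to 0.0984), and leaving out series 4 that of Dkk1 (0.0658). With the actin 3′/5′ ratio as a covariate, the calls of Dmp1, Sost, Pdpn, Dkk1 and Ifitm5 were all lost. The part of these cell types in the Ccn4 and Ccn5 values was not tested.

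Ccn3, whose product restrains osteoblast differentiation, was lower in Hyp in every male pair but not in every female pair. Its brightest probe set, 1426852_x_at, read 1445.9, 1505.9, 1455.5, 1449.5 and 1213.9 in normal males and 742.4, 672.5, 751, 814.7 and 934.5 in Hyp males. These groups did not overlap, as for 0.951% of all probe sets tested, in which every Hyp male array lay below every normal male array. Normal females read 1685.9, 759.1, 1333.4, 1768.9 and 808.4, and Hyp females 889.4, 1190.1, 1294, 889.8 and 816.8. The normal female arrays of series 2 and 5 were thus as low as the Hyp arrays, and the female groups overlapped. The log2 change was -0.84 ± 0.21 (SE) in males and -0.26 ± 0.21 in females. The other probe set, 1426851_a_at, gave -0.55 ± 0.24 in males, where its groups overlapped, and -0.38 ± 0.24 in females. The female change minus the male change was 0.59 ± 0.29 (SE) at 1426852_x_at and 0.17 ± 0.34 at 1426851_a_at. Both the size of the male difference and the difference between the sexes thus depend on the probe set. Both probe sets were lower in 5 of 5 male and 3 of 5 female pairs, and 5.24% of all probe sets were lower in 5 of 5 male pairs and 5.99% in 5 of 5 female pairs.

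Ccn2, also called connective tissue growth factor, went in opposite directions in hemizygous males and heterozygous females, where sex and allele dose cannot be told apart. Normal male arrays read 9250.6, 9873, 7575.2, 6058.7 and 6155.6, and Hyp male arrays 6718.2, 4955.1, 5316.4, 4514.5 and 4453.9. Normal female arrays read 7917.2, 7583.1, 4407.9, 5176.5 and 4015.7, and Hyp female arrays 7403.9, 7906.8, 5749.7, 6078.5 and 5941.4. Hyp was lower than normal in 5 of 5 male pairs and higher in 4 of 5 female pairs, the exception being series 1, but the groups overlapped in both sexes. The female log2 changes of series 1 and 2 lay near 0, at -0.10 and 0.06. Those of series 3, 4 and 5 were 0.38, 0.23 and 0.56. Lower in 5 male pairs and higher in at least 4 female pairs was the pattern of 0.564% of all probe sets. The log2 change was -0.57 ± 0.12 (SE) in males and 0.23 ± 0.12 in females, and over both sexes these gave -0.17 ± 0.09. The female change minus the male change was 0.80 ± 0.17 (SE), and it was positive in 5 of 5 series, from 0.36 to 1.05, as in 4.75% of all probe sets.

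The normal groups took part in that pattern as well as the Hyp groups. Among normal mice, Ccn2 was lower in females than in males of the same series in 5 of 5 series, by a mean log2 difference of -0.44 ± 0.25 (SD, n = 5). Among Hyp mice it was higher in females in 5 of 5 series, by 0.35 ± 0.23. The order of the 4 groups by mean signal was normal males (7783 ± 1745, SD, n = 5), Hyp females (6616 ± 972), normal females (5820 ± 1815) and Hyp males (5192 ± 923). The ranges of neighbours in this order overlapped.

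**Figure D2:**
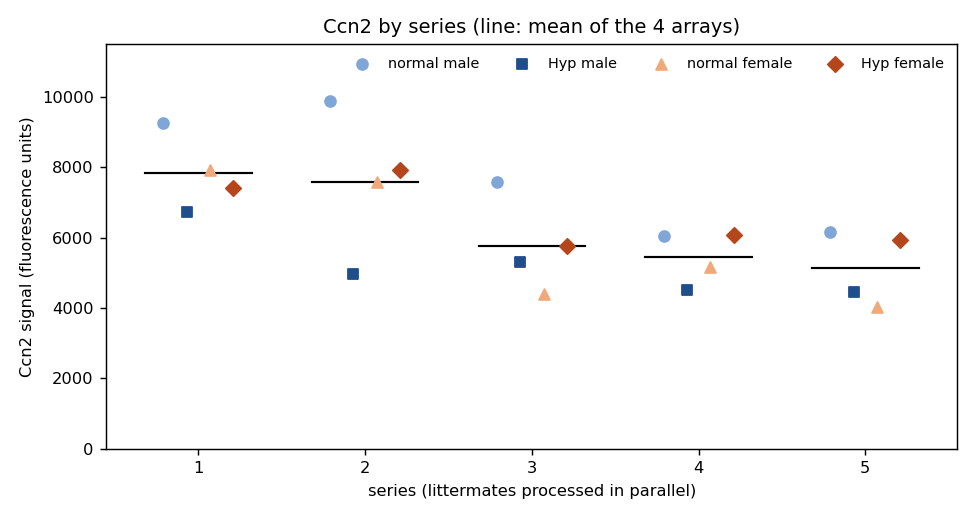
Ccn2 signal (fluorescence units, linear axis from 0) on each of the 20 arrays, by series, with 1 marker per group. Black lines give the mean of the 4 arrays of a series, which runs from 7822 in series 1 to 5142 in series 5, and in each series the Hyp male square lies below the normal male circle.

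The sign of the difference between the sexes was shared within several marker lists, with no marker called for it. The female minus male difference in the Hyp change was positive for 10 of 10 skeletal muscle markers, with a median of 0.44 on the log2 scale. It was positive for 7 of 7 tendon and fibrous markers tested, with a median of 0.47. Over all probe sets it was positive for 13064 of 27141, with a median of -0.01. Markers of one tissue can move together, so these counts are not of independent values. Skeletal muscle and tendon are known to express Ccn2. The difference was negative for 5 of 5 erythroid markers, with a median of -0.69, and for 8 of 8 neutrophil markers, with a median of -0.45. It was positive for 0 of 11 endothelial markers, with a median of -0.15. The other lists were mixed. Positive were 4 of 6 osteoblast, 2 of 6 osteocyte, 3 of 8 cartilage and 3 of 7 smooth muscle and pericyte markers. So were 2 of 3 adipocyte, 1 of 3 nerve and 2 of 6 B lymphocyte markers. The difference was called for 0 markers of any list by limma and 0 under limma-trend. At an unadjusted p below 0.05 were 6 muscle, 1 tendon, 2 erythroid, 0 neutrophil and 0 endothelial markers, beside 1798 of 27141 probe sets. Of the muscle and tendon lists, 0 each were called for Hyp against normal (limma). At an unadjusted p below 0.05 there was 1 each, beside 5495 of 27141 probe sets, and under limma-trend 0, beside 1269. The mean of the muscle list was higher in Hyp in 5 of 5 female and 2 of 5 male pairs, that of the tendon list in 3 of 5 and 1 of 5. Summed muscle signals ran from 259780 to 539436 in normal males, 308553 to 443047 in Hyp males, 278449 to 436394 in normal females and 340229 to 556351 in Hyp females. Summed tendon signals ran from 20517 to 40254, 22927 to 30589, 24293 to 33343 and 25589 to 37954 in the same order. The groups overlap in both lists, and their part in the Ccn2 values was not tested.

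Ccn1, an angiogenic member induced quickly by serum and mechanical load, was read by 4 probe sets that did not move alike. The brightest, 1416039_x_at, read 3691, 3041.7, 2793.6, 3353.7 and 3307.3 in normal males and 2594, 2562.7, 3598.4, 2289 and 2190.3 in Hyp males. It read 4147.7, 3286.4, 2658.7, 3549.9 and 2183.8 in normal females and 3432.3, 5495, 3018, 3548 and 3593.4 in Hyp females. Hyp was lower in 4 of 5 male pairs and in 2 of 5 female pairs, and the groups overlapped in both sexes. Its log2 change was -0.31 ± 0.18 (SE) in males and 0.27 ± 0.18 in females. With the actin 3′/5′ ratio as a covariate these became -0.72 and 0.00094, and the female change of Ccn2 became 0.13 in place of 0.23. The probe set 1438133_a_at gave -0.555 ± 0.15 in males, where the Hyp arrays (1024.8 to 1682.8) lay below all normal arrays (1837.9 to 2220.2), and 0.05 ± 0.15 in females. The other pair, 1442340_x_at and 1457823_at, gave 0.10 ± 0.25 and 0.18 ± 0.25 in males and 0.29 ± 0.25 and 0.07 ± 0.25 in females. The authors' deposited table describes both as expressed sequence tags moderately similar to Cyr61, taken from one clone. Whether they read the same transcript as the first pair was not looked up.

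**Figure D3:**
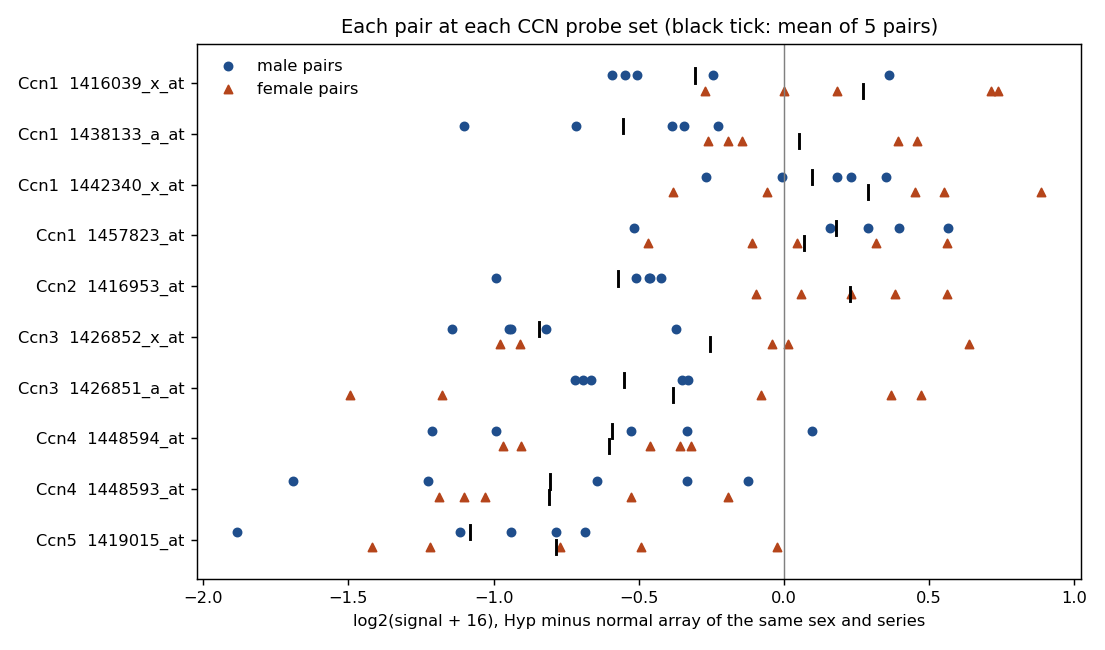
Log2(signal + 16) of the Hyp array minus the normal array of the same sex and series (x axis) at each of the 10 CCN probe sets (rows), with circles for male and triangles for female pairs and a black tick for the mean of 5 pairs. The male and female ticks nearly coincide for both Ccn4 probe sets and lie on opposite sides of 0 for Ccn2.

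Sex over both genotypes was not used to choose the genes, so it was tested. The comparison averages normal and Hyp mice. Its Hyp part sets heterozygous females against hemizygous males, so it mixes sex with dose of the mutant allele. Phex was itself called in it (log2 difference 2.20, limma adjusted p = 8.0e-07). None of the 10 CCN probe sets was called (limma, 0 of 10 past an adjusted p of 0.05, beside 0.133% of all). Of the 10, 1 had an unadjusted p below 0.05, beside 3783 of 27141 probe sets, and 0 were called under limma-trend, beside 164. The CCN female minus male log2 differences ran from -0.05 for Ccn2 to 0.28 for 1448593_at of Ccn4, with 9 of 10 above 0. The lowest adjusted p was 0.296, for Ccn1 at 1438133_a_at, with a difference of 0.26 ± 0.11 (SE). The highest adjusted p was 0.919. For Ccn2 the value near 0 averages the opposite differences of normal and Hyp mice given above. With 5 arrays of pooled RNA in each group, these p-values measure the spread between pools.

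Differences among the 5 series, each a set of litters handled together, were likewise independent of the choice. Of the 10 probe sets, 1 varied between series, that of Ccn2 (limma moderated F = 8.15, adjusted p = 0.0222), beside 7.43% of all probe sets tested. The mean Ccn2 signal of the 4 arrays was 7822 in series 1, 7580 in series 2, 5762 in series 3, 5457 in series 4 and 5142 in series 5. For the other 9 probe sets the adjusted p ran from 0.282 to 0.795. The Ccn2 call was lost in 5 of 25 repeats: without series 1 (F = 5.56, adjusted p = 0.113), series 2 (9.33, 0.0544), series 4 (7.82, 0.0659) or series 5 (6.92, 0.0713), and without the normal female array of series 1 (6.48, 0.0571).

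The genes whose signals followed each member most closely over the 20 arrays were named as a description, by Pearson's r among 12243 genes. All arrays share the 4 groups and 5 series, and the highest of so many values is high in part because it was picked. Ccn4 had the closest companions: Adgrd1, an adhesion G protein-coupled receptor (r = 0.958), Col11a2, a chain of type XI collagen (0.949), and Cpz, carboxypeptidase Z of the matrix (0.949). With group and series means removed, Cpz stayed closest (0.962), followed by Plod2, a collagen lysyl hydroxylase (0.923), and Tent5a, a poly(A) polymerase of osteoblast collagen transcripts (0.922). Col11a2, which stands in the cartilage list, fell in Hyp by 0.79 ± 0.15 (SE) on the log2 scale (limma adjusted p = 0.0175), the 1 called of 8 cartilage markers tested. Its call was lost without series 1, 2, 4 or 5 (up to 0.0961). The summed cartilage signal ran from 12022 to 16952 in normal males, 7722 to 14619 in Hyp males, 14316 to 23479 in normal females and 9032 to 18455 in Hyp females. Col11a2 itself is a large part of this sum, with mean signals of 7592 and 4811 in normal and Hyp males and 10238 and 5317 in females. Of the 8 cartilage markers tested, 5 had a positive change, and the median was 0.02. Col9a2 of that list was called present on no array.

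Ccn5 was closest to Sost (r = 0.888), Phex itself (0.862) and Sfrp4, a secreted Wnt antagonist (0.839). After removal of group and series means, Sfrp4 was closest (0.893), before Tpbg (0.861) and Prorp (0.851), so Sost and Phex were no longer among the nearest. Ccn3 was closest to Ecrg4 (0.833), Igfbp6, an insulin-like growth factor binding protein (0.811), and Col14a1, a collagen of fibrous tissue (0.802), and with means removed to Socs3 (0.815), Psma5 (0.805) and Abi3bp (0.803). Ccn2 was closest to Tcaim (0.806), Hhatl (0.805) and Dyrk1a (0.794), and with means removed to Tafa3 (0.828), Mbtd1 (0.803) and Map2k4 (0.790). Ccn1 was closest to 5031425E22Rik (0.814), Tnip1 (0.808) and Snx13 (0.783), and with means removed to Gtf2h3 (0.853), 5031425E22Rik (0.793) and Tmem135 (0.771).

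Within the family, r was highest for Ccn3 with Ccn5 (0.754), where Ccn5 was the 5th closest of 12243 genes to Ccn3. It was 0.679 for Ccn4 with Ccn5 and 0.605 for Ccn1 with Ccn2. These values include the Hyp against normal differences by which the genes were chosen. With group and series means removed, Ccn3 with Ccn5 stood at 0.50 and Ccn1 with Ccn2 at 0.454, but Ccn4 with Ccn5 at -0.06. Ccn5 then ranked 441 among the genes closest to Ccn3, and Ccn2 ranked 517 among those closest to Ccn1. Ccn4 and Ccn5 were thus alike across groups and not within them.

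The pathways around the family were examined through 8 gene lists, tested over both sexes. These genes are not members and their p-values are limma's, adjusted over all 27141 probe sets. The lists were drawn up with earlier results of these data known, so counts of calls in a list are a description. Calls stood at 5 of 105 gene entries tested, beside 2.38% of all probe sets. Under limma-trend they stood at 13, beside 1269 of 27141 probe sets. An unadjusted p below 0.05 (limma) was found for 31 of the 105, beside 5495 of 27141. These values over all probe sets are the background for the counts of each list below. With the actin 3′/5′ ratio as a covariate all 5 limma calls were lost, and only 1 probe set in all, that of Phex, was called.

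Of 13 receptors for CCN proteins, 2 rose and 0 fell (4 at an unadjusted p below 0.05, 3 called under limma-trend). Itga6, an integrin chain that binds Ccn1 and Ccn2, rose by 0.40 ± 0.08 (SE) on the log2 scale, from mean signals of 1800 to 2469 in males and 1675 to 2166 in females, in 10 of 10 pairs (adjusted p = 0.0174). Notch1, reported to bind Ccn3, rose by 0.38 ± 0.08, also in 10 of 10 pairs (adjusted p = 0.0257). The median of the list was -0.01. The largest changes that did not pass were 0.62 for Itga2b, the platelet integrin chain (adjusted p = 0.0739), and -0.28 for Lrp1, an endocytic receptor of Ccn2 (0.125). Itga2b passed under limma-trend, and without the normal male array of series 3 (0.0477) or 5 (0.0443) or the Hyp male array of series 5 (0.044), and Lrp1 without the normal male array of series 3 (0.0414). Endothelial cells express Itga6 and Notch1. Of 11 endothelial markers all had a positive change and 3 rose: Pecam1 by 0.52, Flt1 by 0.46 and Cldn5 by 0.44. The unadjusted limma p was below 0.05 for 9 of the 11 markers, and 9 of these markers passed under limma-trend. Their summed signal ran from 11384 to 15306 in normal and 16197 to 20898 in Hyp males, and from 11270 to 15902 in normal and 14455 to 19173 in Hyp females. The part of endothelial RNA in the receptor values was not tested. Repeats ended the Flt1 call in 4 of 25 (series 1, 2, 4 or 5 left out), that of Pecam1 in 20 and that of Cldn5 in 17. The Itga6 call was lost without series 1, 2, 4 or 5 (adjusted p up to 0.112), and that of Notch1 in 10 of 25 repeats (up to 0.143). With no filter on present calls, neither Itga6 nor Notch1 passed, and of the 3 endothelial markers none did.

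Regulators and targets of the Hippo pathway, which holds YAP out of the nucleus, had no calls in limma. Of 15 genes of the Hippo kinases, YAP and the TEAD factors 0 passed (2 at an unadjusted p below 0.05, 1 under limma-trend), with a median of -0.01. Tead3 had the largest change at -0.44 ± 0.11 (SE), lower in 9 of 10 pairs (adjusted p = 0.0549), then Tead2 at -0.26 ± 0.13 (0.267). Tead3 passed under 6 other settings, limma-trend among them, and without the normal female array of series 2 (0.0499). Of 19 YAP target genes 0 passed (4 at an unadjusted p below 0.05, 0 under limma-trend), with a median of 0.01. Ankrd1, a muscle-expressed YAP target, had the largest change at 0.73 ± 0.23 (adjusted p = 0.0971), with mean signals of 628 and 814 in normal and Hyp males and 639 and 1380 in females. It passed without series 3 (0.042) or without the normal male array of that series (0.0261). Gadd45a, a stress-response gene, stood at 0.55 ± 0.24 (0.219).

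Among 16 genes of TGF-beta signalling, 1 rose and 0 fell (7 at an unadjusted p below 0.05, 4 called under limma-trend), with a median of 0.01. Ltbp3, a latent TGF-beta binding protein of bone matrix, rose by a log2 change of 0.36 ± 0.09 (SE), upward in 9 of 10 pairs (adjusted p = 0.0469). It did not pass in 23 of 25 repeats, where the adjusted p reached 0.131, nor with no filter on present calls or after median centring. Eng stood at 0.31 (0.104) and Tgfbr1 at -0.29 (0.0555, lower in 10 of 10 pairs). Tgfbr1 passed without series 3, without its normal male array or without its Hyp female array, with adjusted p of 0.0397, 0.0219 and 0.0454, and also under 5 other settings, limma-trend among them. Of 11 TGF-beta target genes 0 passed (2 at an unadjusted p below 0.05, 0 under limma-trend), with a median of -0.11, and the largest changes were those of Thbs1 (-0.33, adjusted p = 0.14) and Tgfb1 (-0.27, 0.202). Of 12 genes of serum response factor and its cofactors 0 passed (4 at an unadjusted p below 0.05, 3 under limma-trend), although 10 of 12 changes were above 0 and the median was 0.19. Tagln stood at 0.41 (0.184) and Myl9 at 0.35 (0.058, higher in 10 of 10 pairs), which passed under 3 other settings.

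Of 10 Wnt response genes listed, 6 were tested. Tcf7 was matched to no probe set, and Nkd1, Rnf43 and Sp5 were called present on no array at the probe set used. Among the pathway lists, only this list had all tested changes on the same side, 6 of 6 below 0 with a median of -0.24. Only 1 was called as lower (4 at an unadjusted p below 0.05, 1 called under limma-trend). Apcdd1, an inhibitor of Wnt receptors, had a log2 change of -0.53 ± 0.13 (SE), downward in 8 of 10 pairs (adjusted p = 0.0485), a call lost in 21 of 25 repeats (up to 0.189), with no filter on present calls, with a pseudocount of 1 and with a random block. Notum, a secreted Wnt deacylase, stood at -0.27 (0.135) and Nkd2 at -0.25 (0.206). Among 13 other matricellular genes, 1 fell and 0 rose (4 at an unadjusted p below 0.05, 1 called under limma-trend), with a median of 0.0045. Smoc2, a calcium-binding matrix protein related to Sparc, fell by 0.59 ± 0.10 in 9 of 10 pairs (adjusted p = 0.0116), from mean signals of 3114 to 1890 in males and 3104 to 2274 in females. Its call was lost without series 1 (0.0606), 2 (0.0969) or 4 (0.0796). Tnxb stood at -0.60 (0.164) and Smoc1 at -0.38 (0.349). Without the normal male array of series 5, Tnxb passed (0.0404).

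**Figure D4:**
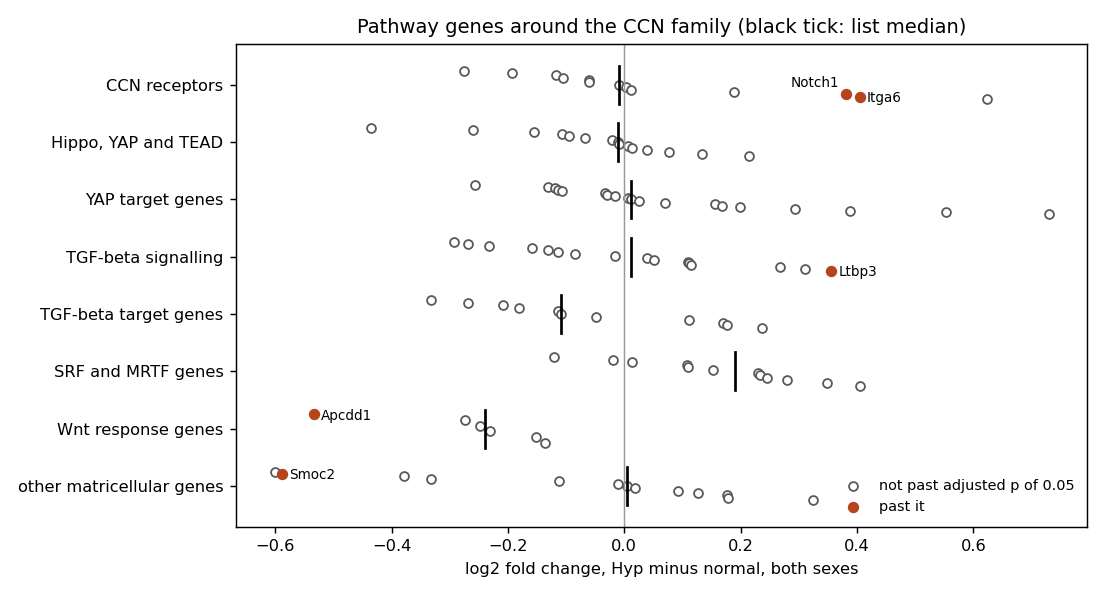
Log2 change of Hyp against normal over both sexes (x axis) for each tested gene of 8 lists around the CCN family (rows). Filled points passed a limma adjusted p of 0.05 (Itga6, Notch1, Ltbp3, Apcdd1 and Smoc2), open points did not, and a black tick marks the median of each list, lowest for the Wnt response genes at -0.24.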

How the data were processed

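Total RNA of 20 pools (8 µg each) was hybridised to Affymetrix mouse arrays. The deposited signal intensity per probe set, on a linear scale, came from GCOS, the tool the submitters' processing notes name without a version; the scaling target is not given in the sources used here. Present, marginal and absent calls came from the authors' deposited table, whose signals equal those of the value table for 45101 probe sets. Of these, 34958 carry 1 gene symbol in the platform annotation, 932 several and 9211 none. Symbols were read through RefSeq gene identifiers (0 changed), and the promoter is RefSeq's.

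Signals were used as log2(signal + 16) without further normalization. The 64 control probe sets and those present on fewer than 5 of 20 arrays were left out, which left 27141. One linear model held 4 groups and the series as a block (limma 3.58.1, R 4.3.3, lmFit and eBayes, 12 residual and 3.44 prior degrees of freedom), with Benjamini-Hochberg adjustment over all probe sets. The block follows the labels, which match each replicate for littermates and parallel processing. Deviations from group means correlated at a median of 0.215 (-0.03 to 0.418) for 30 pairs of arrays of one series and at -0.07 for 120 other pairs. The code was tested on simulated data.

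The members and gene lists were chosen with earlier results of these data known. Members therefore carry no p for contrasts of genotype, and counts of calls in a list are a description. A gene is represented by its brightest probe set. Named genes are the members, Phex, in each pathway list the called genes and the 2 largest other changes, the 3 genes most like each member, and called or never present markers. Marker lists covered osteoblast, osteocyte, cartilage, tendon and fibrous tissue, smooth muscle and pericyte, endothelium, skeletal muscle, adipocyte, nerve, erythroid, neutrophil and B lymphocyte. Alternatives were 2 other pseudocounts, other filters, quantile normalization, median centring, no block or a random block, limma-trend, the actin 3′/5′ ratio as a covariate, other probe sets, and each series or array left out. Depth does not apply to array signals; the precision is set by how many arrays there are.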

Additional observations from a re-analysis of the deposited data

Results flagged for a closer look

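Within the groups of 5 arrays, 44 sets of values were checked for a single array far from the other 4, by Dixon's test at the 95% level, which chance passes in about 1 in 20 sets. In Hyp males, Ccn1 at 1416039_x_at read 3598.4 in series 3 against a median of 2562.7. In Hyp females, the array of series 2 stood out at 3 probe sets: Ccn1 at 1416039_x_at with 5495 (median 3548), Ccn1 at 1438133_a_at with 2661.8 (median 1934.3), and Ccn6 at 1444050_at with 105.6 (median 68.8). In normal males, Ccn3 at 1426852_x_at read 1213.9 in series 5, the low end of a group with a median of 1449.5. Without the Hyp female array of series 2, the Ccn1 change in females was 0.13 on the log2 scale, against 0.27 with it. Without the Hyp male array of series 3, the Ccn1 change in males was -0.48, against -0.31.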

How the results depend on the processing

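The number of probe sets called for Hyp against normal over both sexes was 647. It was 148 with no filter on present calls, 317 with no replicate block, 1269 under limma-trend and 1 after adjustment for the actin ratio. In males it was 27, against 129 with a pseudocount of 64, 4 with no filter, 75 for presence on at least 10 arrays, 53 after quantile normalization, 42 after median centring, 2 with no replicate block, 97 with a random block, 429 under limma-trend and 2 with the actin ratio. In females it was 1, against 0 with a pseudocount of 1, 6 with 64, 4 for presence on at least 10 arrays, 3 after quantile normalization, 3 after median centring and 25 under limma-trend. For sex it was 36, against 59 with a pseudocount of 64 and 164 under limma-trend, and for series 2016, against 1138 with no filter. Leaving out each series or array gave 20 to 1343 calls over both sexes, 1 to 312 in males, 1 to 22 in females, 1 to 2 for the difference between the sexes, 26 to 153 for sex and 795 to 2465 for series. The lowest and highest counts over both sexes came without series 4 and without the normal male array of series 3. The cause was not tested.

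The replicate block leaves a member's log2 change as it is, since the design is balanced. The pairing therefore changed no CCN value (Ccn5 -0.93 with and without it), but without it the calls of Apcdd1, Ltbp3, Notch1 and Pecam1 were lost. After adjustment for that ratio, the change of Ccn1 was -0.72 in place of -0.31 in males, 0.00094 in place of 0.27 in females and -0.36 in place of -0.02 over both sexes. That of Ccn2 was -0.71 in place of -0.57 in males and 0.13 in place of 0.23 in females, and over both sexes Ccn2, Ccn3, Ccn4 and Ccn5 stood at -0.29, -0.49, -0.79 and -0.88. With no filter on present calls, 8 named list genes lost their call (Apcdd1, Cldn5, Col11a2, Flt1, Itga6, Ltbp3, Notch1 and Pecam1), among them 4 of the 5 pathway genes called. Ltbp3 also lost it after median centring, and Apcdd1 with a pseudocount of 1 or a random block. With the actin ratio, 14 named list genes lost their call, and Tnxb turned to 0.0138 (adjusted p = 0.995). By other probe sets, the male change was 0.10 and 0.18 for Ccn1 and -0.55 for Ccn3, and the difference between the sexes for Ccn1 was -0.11. The series effect of Ccn2 did not pass with no filter (F = 7.18, adjusted p = 0.0674), and without a series or array its F ran from 5.56 to 11.97. Over 25 such repeats, the change over both sexes ran from -0.10 to 0.08 for Ccn1, -0.23 to -0.10 for Ccn2, -0.64 to -0.46 for Ccn3, -0.71 to -0.48 for Ccn4 and -1.08 to -0.86 for Ccn5. Arrays have no depth; with 5 pools per group, the number of arrays limits what a test can show.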

Other observations

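Ccn6, the remaining gene of the family, is not among the genes described above. It had 1 probe set, 1444050_at, called present on 10 of 20 arrays: 3 of 5 normal male, 1 of 5 Hyp male, 2 of 5 normal female and 4 of 5 Hyp female arrays. Its signal ranged from 9.1 to 100.3 in normal males, from 21.1 to 57.3 in Hyp males, from 4.4 to 61.7 in normal females and from 58.6 to 105.6 in Hyp females. The Hyp array was lower in 4 of 5 male pairs and higher in 5 of 5 female pairs. In the limma fit across all probe sets its log2 change was -0.44 ± 0.37 (SE) in males (adjusted p = 0.555) and 0.85 ± 0.37 in females (adjusted p = 0.453). The difference between the sexes, 1.29 ± 0.52, did not pass either (adjusted p = 0.751), and at such signals a fold depends on the pseudocount.

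Of the remaining marker lists, erythroid markers were uneven between the sexes. Their summed signal ran from 10205 to 27432 in normal and 24101 to 45893 in Hyp males, and from 11268 to 18283 in normal and 13452 to 19289 in Hyp females. Of 5 tested, 0 were called in limma, 4 had an unadjusted p below 0.05 and 2 were called under limma-trend. Over all 27141 probe sets, 5495 had an unadjusted p below 0.05 and 1269 were called under limma-trend. Called at the same threshold were 0 of 7 smooth muscle and pericyte markers (3 at an unadjusted p below 0.05, 0 under limma-trend), 0 of 3 adipocyte (1, 0), 0 of 3 nerve (2, 0), 0 of 8 neutrophil (1, 0) and 0 of 6 B lymphocyte markers (2, 1). Cnn1, Lep and Hba-a1 were called present on no array at the probe set used.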
